A study of Mus musculus with 4 samples.

Results

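The mitochondrially encoded genes are the 37 genes whose symbols start with mt-, and they were 37 of the 46983 genes in the deposited matrices. They were chosen by symbol alone and comprised 2 rRNA genes, 22 tRNA genes and 13 protein-coding genes, all on chromosome M of GRCm38. Single-nucleus RNA-seq libraries (10x Genomics) were made from the brain of male C57Black/6 mice aged 3 months. The 4 groups were a sham control and mice taken at day 1, at day 3 or at day 7 of permanent middle cerebral artery occlusion (MCAO), in which the vessel was coagulated and then cut through, leaving a small infarct in parietal cortex. Each group was 1 library made from 3 forebrain hemispheres pooled during preparation, and the labels name no transgene. Nuclei were freed from frozen tissue with a Dounce grinder in a buffer with NP-40 and spun through sucrose. One label calls the control intact cortex, whereas the design names forebrain hemispheres for every group, and 362 of the 2186 sham control nuclei carried markers of striatal projection neurons. The study's methods also name intact tissue as control, so whether the animals labelled sham control had sham surgery is unclear. A possible exchange of the day 3 and day 7 labels could not be checked, and the labels were kept. With 1 library per group no difference has a replicate check and no p-value was computed. Intervals in parentheses are exact 95% intervals that cover counting error only, and runs of 4 values follow the order sham control, day 1, day 3, day 7.

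Mitochondria keep a small circular genome of their own. It encodes the rRNAs and tRNAs of the mitochondrial ribosome and a few core subunits of the respiratory chain and ATP synthase, while the remaining subunits and the whole transcription machinery come from nuclear genes. Its RNA is transcribed from both strands as long precursors, which are cut mostly at the tRNAs, and it stays in mitochondria, in the cytoplasm. Neurons, with their long processes and heavy demand for ATP, depend on oxidative phosphorylation, and loss of blood flow stops the oxygen supply on which it runs.

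The measure used throughout was the mt- share, the percentage of all unique molecular identifiers (UMIs, each marking 1 captured RNA molecule) that fell on mt- genes. Barcodes with over 1000 UMIs were taken as nuclei, which left 2186 for sham control and 1191, 3622 and 1722 for days 1, 3 and 7 after predicted doublets were removed. Droplets of 11 to 500 UMIs, below the limit set for nuclei, gave the free RNA of each library and numbered 30558, 13754, 42550 and 28012 in the same order. The libraries held 23285489 to 42963698 UMIs, and any pair of libraries shared at most 3 of the barcodes taken as nuclei. Median depth per nucleus was 6108, 8519, 4518 and 6226 UMIs. Classes of nuclei were named from marker genes after clustering without the mt- genes, and each name is given as "-like". In the day 3 library the counts of 1 mt- gene, mt-Nd3, were almost all listed under a nuclear copy of it, which is described with that gene.

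Few of the mt- genes held nearly all of the signal. Over the 4 whole libraries the mt- genes held 1809012 UMIs, of which the rRNA genes held 57.3%, the protein-coding genes 42.2% and the tRNA genes 0.493%. UMIs were found on 30 of the 37 genes, 15 had over 100, and the 7 genes at 0 in every library were tRNA genes. Genes on the plus strand as annotated took 99.8% of the mt- UMIs, and the 9 on the minus strand took 0.160%.

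Levels of single genes are given as CPM, the usual scaling of UMIs to a common total, and to compare genes as CPM of the whole library per kb of gene. The rRNA of the large mitochondrial ribosomal subunit, mt-Rnr2 (chrM:1094-2675), stood at 1772 for sham control and 4721, 4809.9 and 3639 for days 1, 3 and 7. That of the small subunit, mt-Rnr1 (chrM:70-1024), stood at 1222 for sham control and 3266, 3359 and 2911 for days 1, 3 and 7. Both rRNAs were thus lowest in sham control. Among the protein-coding genes the highest level was that of mt-Cytb (chrM:14145-15288), the cytochrome b subunit of complex III, with 1065 for sham control and 2339, 2266 and 1915 for days 1, 3 and 7. The subunits of complex I, the NADH dehydrogenase, came next. Gene mt-Nd1 (chrM:2751-3707) reached 607 for sham control and 1309, 1437 and 1125 for days 1, 3 and 7, mt-Nd2 (chrM:3914-4951) 661, 1406, 1299.5 and 1187, and mt-Nd4 (chrM:10167-11544) 485, 1051, 1095 and 862. The order mt-Cytb, then mt-Nd1 and mt-Nd2, then mt-Nd4 held in all 4 libraries, while mt-Nd1 and mt-Nd2 changed places. The 4 levels of mt-Co1 (chrM:5328-6872), the catalytic subunit of complex IV, were 114, 264, 281 and 234, and those of mt-Nd5 (chrM:11742-13565) were 69.4, 148, 155 and 121. The only protein-coding gene of the minus strand, mt-Nd6 (chrM:13552-14070), was lower still, at 22.4, 42.2, 47.9 and 33.2.

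**Figure D1:**
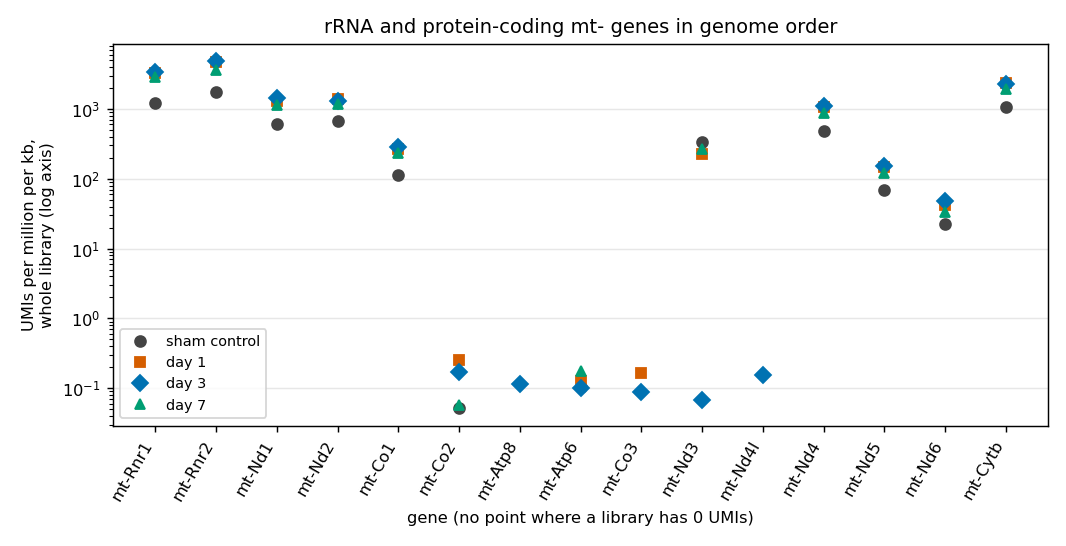
Level of the rRNA and protein-coding mt- genes in genome order (CPM per kb of gene in the whole library, log axis), with 1 point for each library and none where a library had 0 UMIs. The rRNA genes and mt-Cytb, mt-Nd1, mt-Nd2 and mt-Nd4 lie at the top, and mt-Co2, mt-Atp8, mt-Atp6, mt-Co3 and mt-Nd4l, with 30 UMIs together, lie at the bottom with mt-Nd3 of day 3.

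The tRNA genes were counted rarely. Gene mt-Tw (chrM:4950-5016), the tRNA for tryptophan, held 7713 of the 8917 tRNA UMIs, with 991, 1553, 2806 and 2363 in sham control, day 1, day 3 and day 7. Its annotation overlaps the end of mt-Nd2 by 2 bases. The next were mt-Tm, the tRNA for methionine, with 26, 68, 99 and 123 UMIs, and mt-Ta, the tRNA for alanine, with 11, 52, 44 and 127. No other tRNA gene exceeded 136 UMIs over the 4 libraries. Of these 3 tRNAs, mt-Ta lies on the minus strand.

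Of the 13 protein-coding genes, 5 were close to 0. They were mt-Co2 and mt-Co3, core subunits of complex IV, with 11 and 6 UMIs over all libraries, mt-Atp6 and mt-Atp8, subunits of ATP synthase, with 10 and 1, and mt-Nd4l, a complex I subunit, with 2. Of these 5, 4 have a nearly full copy in the nuclear genome, in a run of 7 copies on the minus strand of chromosome 1 between 24611535 and 24616197. Stretches of 50 bases that also occur, on either strand, in a transcript of a gene outside chromosome M made up 635 of 635 of the stretches of mt-Co2, 629 of 632 of mt-Atp6, 734 of 735 of mt-Co3 and 245 of 248 of mt-Nd4l. The exception was mt-Atp8, which shared none of its 155 stretches and overlaps mt-Atp6 by 43 bases. The copies were close to 0 as well. Gene Gm28661, the copy of mt-Co2, held 18 UMIs, Gm28437, that of mt-Co3, 25, Gm10925, that of mt-Atp6, 15, and Gm10222, that of mt-Nd4l, 3. By the study's methods UMIs assigned to several genes were filtered. How reads that fit both a gene and its copy were counted was not tested, so the levels of these genes are uncertain. Genes with no shared stretch included mt-Cytb, mt-Nd1, mt-Rnr1 and mt-Nd6, whereas mt-Nd4 shared 827 of 1329 and mt-Co1 765 of 1496.

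The sequences show how little separates gene and copy. They are transcript sequences of GENCODE vM21 on GRCm38, 5′ to 3′. The end of mt-Co3 (bases 725 to 784, chrM:9331-9390, plus strand) and of its copy Gm28437 (bases 725 to 783, chr1:24613189-24613247, minus strand) are shown because the gene had 6 UMIs, and the capital marks the last base of the gene, which the annotated copy does not hold.
mt-Co3: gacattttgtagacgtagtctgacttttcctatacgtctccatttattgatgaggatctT
Gm28437: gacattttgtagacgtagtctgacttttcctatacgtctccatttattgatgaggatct
By contrast mt-Nd4, with 147121 UMIs, is matched by its copy Gm28439 over its first 876 bases alone. Bases 847 to 906 of mt-Nd4 (chrM:11013-11072, plus strand) carry in capitals the part past the end of the copy, and the copy (chr1:24611535-24611564, minus strand) is shown up to its end.
mt-Nd4: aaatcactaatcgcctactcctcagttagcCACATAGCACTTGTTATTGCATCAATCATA
Gm28439: aaatcactaatcgcctactcctcagttagc
The copy Gm28439 held 9 UMIs, and mt-Nd4 was not near 0. Nor was mt-Nd3, with 98.0% of its stretches shared with Gm28438 and 7406 UMIs. Its copy differs from it at 1 aligned base, whereas the copies of mt-Co2, mt-Co3, mt-Atp6 and mt-Nd4l differ at 0.

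The gene mt-Nd3 (chrM:9459-9806), a further complex I subunit, was the member whose counts set one library apart. Its copy Gm28438 (chr1:24612775-24613119, minus strand) covers bases 1 to 345 of the gene, with 344 identical bases and 1 difference. With positions counted from 1 at the first base of mt-Nd3 and the base of mt-Nd3 given first, the difference is T3C, at position 9461 of chromosome M. The first 60 bases of both are shown with that base in capitals (chrM:9459-9518, plus strand, and chr1:24613060-24613119, minus strand).
mt-Nd3: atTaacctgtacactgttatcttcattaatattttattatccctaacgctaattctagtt
Gm28438: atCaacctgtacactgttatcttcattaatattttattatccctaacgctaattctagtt
In the whole libraries mt-Nd3 held 3261 UMIs for sham control and 1821 UMIs, 1 UMI and 2323 UMIs for days 1, 3 and 7. The copy held 1, 2, 5254 and 3 UMIs in the same order. The day 3 library was thus the only one in which the copy took nearly all UMIs of the pair, and in the other 3 the gene did. Nuclei and droplets showed the same exchange, since Gm28438 held 2811 UMIs in day 3 nuclei and 1119 in day 3 droplets, where mt-Nd3 held 1 and 0. Gene or copy had a UMI in 414 sham control nuclei (mt-Nd3), 245 at day 1 (mt-Nd3), 845 at day 3 (Gm28438) and 296 at day 7 (mt-Nd3). What led to the exchange was not tested.

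As a pair, mt-Nd3 and Gm28438 did not lose their UMIs at day 3. Their sum was 17.3% (16.7 to 18.0) for sham control and 5.41% (5.16 to 5.67), 8.11% (7.88 to 8.34) and 7.82% (7.5 to 8.16) for days 1, 3 and 7 of the UMIs of mt-Nd4, a neighbour on the same strand. The sham control library stood above the other 3, which lay within 5.41% to 8.11%. In droplets the sum was 15.4%, 5.29%, 6.81% and 6.98% of mt-Nd4, so sham control was highest in free RNA too. Of the other chromosome 1 copies, Gm29216, which matches the end of mt-Co1, held 19, 11, 33 and 19 UMIs.

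**Figure D2:**
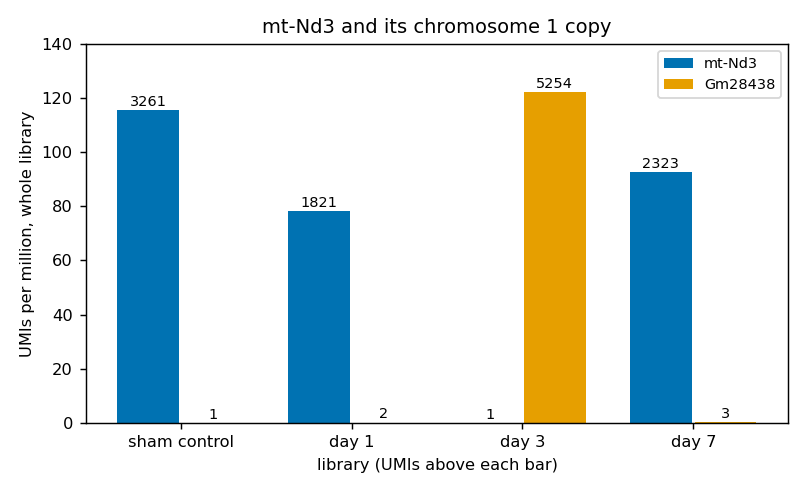
CPM of the whole library on mt-Nd3 and on its chromosome 1 copy Gm28438 in each of the 4 libraries, with the number of UMIs above each bar. The UMIs sit on mt-Nd3 in sham control, day 1 and day 7 and on Gm28438 at day 3.

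The first comparison asked how much of the RNA in nuclei and in free RNA was mitochondrial after MCAO. Summed over all nuclei, the mt- share was 0.696% (0.692 to 0.700) for sham control and 1.41% (1.40 to 1.42), 1.89% (1.88 to 1.89) and 1.31% (1.30 to 1.31) for days 1, 3 and 7. Each post-injury library was above sham control, with ratios of 2.03 (2.01 to 2.04), 2.72 (2.7 to 2.73) and 1.88 (1.87 to 1.89) for days 1, 3 and 7. In droplets the mt- share was 0.741% (0.736 to 0.747) for sham control and 2.11% (2.10 to 2.12), 1.26% (1.25 to 1.26) and 1.45% (1.44 to 1.46) for days 1, 3 and 7. Here too each post-injury library was above sham control, with ratios of 2.85 (2.82 to 2.88), 1.70 (1.68 to 1.71) and 1.95 (1.93 to 1.97) for days 1, 3 and 7, but the highest library was day 1 in droplets and day 3 in nuclei. A droplet held on average 2.23, 8.03, 4.47 and 4.55 mt- UMIs among 301, 380.1, 355 and 314 UMIs in all. The mt- share of nuclei divided by that of droplets was 0.938 for sham control and 0.668, 1.50 and 0.903 for days 1, 3 and 7, so by sums nuclei held the larger mt- share in the day 3 library alone. The direction depended on the weighting, since the mean of single nuclei, 1.25%, 4.80%, 4.70% and 3.25%, lay above the mean of single droplets, 0.737%, 2.11%, 1.26% and 1.44%, in all 4 libraries, and the median nucleus, 0.137%, 0.245%, 0.253% and 0.189%, lay below the median barcode of over 200 and up to 500 UMIs, 0.441%, 1.67%, 0.926% and 1.03%, in all 4. Barcodes of 1 to 10 UMIs, which are not among the droplets used here, held 1.12%, 2.40%, 2.73% and 2.31%, above the sum of the nuclei in all 4 libraries and highest at day 3.

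The sum over all nuclei rested on a minority of barcodes. Nuclei with over 5% mt- UMIs numbered 89 (4.07%) for sham control and 184 (15.4%), 598 (16.5%) and 170 (9.87%) for days 1, 3 and 7. They held 69.8%, 82.7%, 84.5% and 81.1% of the mt- UMIs of their library's nuclei. Leaving them out gave mt- shares of 0.216%, 0.256%, 0.314% and 0.258%. The median nucleus had a far lower share, 0.137%, 0.245%, 0.253% and 0.189%, and its order kept sham control lowest. In nuclei over 2000 UMIs alone the sums were 0.616%, 1.11%, 1.35% and 1.09%. With every nucleus thinned to 1000 UMIs it was 1.25%, 4.82%, 4.70% and 3.24%. The nuclei over 5% mt- UMIs were shallow, with median depths of 2654, 1838, 1806 and 2496 UMIs.

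**Figure D3:**
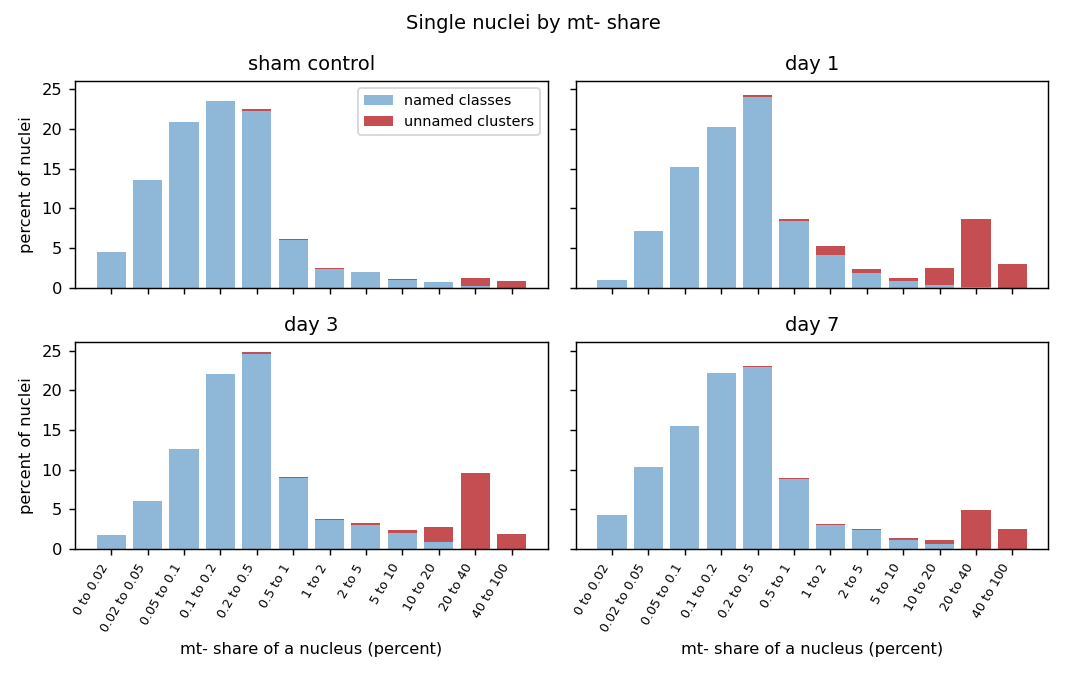
Percentage of nuclei in each range of the mt- share of a single nucleus, for the 4 libraries, with named classes in blue and unnamed clusters in red. Nuclei over 20% mt- UMIs, which numbered 48, 139, 414 and 127 in sham control, day 1, day 3 and day 7, lie almost wholly in unnamed clusters.

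Most high-share barcodes fell into 2 clusters that were not named as a cell type, since the best class score led the next by less than 1.5. The first scored 3.64 as choroid plexus cell and 2.96 as astrocyte, the second 4.03 as astrocyte and 2.60 as choroid plexus cell. The second thus fell just short of a name, by a limit set after the clusters were seen. The first was led by Fabp7, 2900052N01Rik, Ttr, S100a1 and Rplp1 and held 8, 114, 363 and 52 nuclei in sham control, day 1, day 3 and day 7. Its mt- share was 8.30% (8.08 to 8.53) for sham control and 21.8% (21.6 to 22.0), 27.8% (27.7 to 28.0) and 28.3% (28.0 to 28.7) for days 1, 3 and 7. Its median depth was 3166, 1278, 1351 and 1236 UMIs, close to the limit of 1000 in the 3 post-injury libraries. The second was led by Gm13340, Aldoc, Ndrg2, Ddn and Dio2, and held 44, 75, 144 and 92 nuclei. Gm13340, a gene that shares 50-base stretches with mt-Co1, was among the 3000 variable features used for clustering, and no clustering without it was run. The mt- share of the second cluster was 32.5% (32.2 to 32.7) for sham control and 30.9% (30.7 to 31), 31.9% (31.8 to 32.0) and 29.6% (29.4 to 29.7) for days 1, 3 and 7. Unlike the first, it was no lower in sham control than after MCAO. The first cluster held 4.27%, 22.9%, 36.5% and 11% and the second 37.3%, 52.4%, 37.2% and 57.8% of the mt- UMIs of the nuclei of each library. Both took a name when the libraries were merged without integration. Of the 537 nuclei of the first, 523 fell into a cluster of 642 nuclei, led by Hspa1b, Slc4a5 and Tmem72 and named choroid plexus cell-like, which also took 92 of the 355 nuclei of the second. Its mt- share was 17.9%, 15.1%, 26.6% and 22.2% and its median 35.9%, 24.4%, 28.9% and 33.3%, so that sham control was not the lowest library there. Another 261 nuclei of the second fell into a cluster of 267, named astrocyte-like and led by Aldoc, Gm13340 and Ndrg2, with an mt- share of 35.0%, 35.3%, 31.9% and 34.0%. Unnamed cluster 3, of 23 nuclei led by Ikzf1, Ly86 and Dock8, had shares of 2.63%, 0.450%, 0.278% and 0.394%, of which the sham control value rests on 1 nucleus of 9.23%. Its medians were 0.444%, 0.412%, 0.311% and 0.372%.

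In the named classes alone the post-injury libraries did not all lie above sham control by sums. This depends on the limit for a name, which unnamed cluster 2 narrowly missed. That cluster held 42752, 97852, 155040 and 103087 mt- UMIs, against 66257, 46039, 109805 and 55665 in all named classes together. Summed over them, the mt- share was 0.407% (0.404 to 0.410) for sham control and 0.363% (0.360 to 0.366), 0.522% (0.519 to 0.525) and 0.422% (0.418 to 0.425) for days 1, 3 and 7, with ratios to sham control of 0.891 (0.880 to 0.901), 1.28 (1.27 to 1.29) and 1.04 (1.02 to 1.05) for days 1, 3 and 7. The median nucleus of a named class held 0.132%, 0.189%, 0.202% and 0.161%, so by medians all 3 post-injury libraries were above sham control. The day 1 direction of the sum also turned without the ependymal cell-like and choroid plexus cell-like classes, left out after their values were seen. In sham control they were 24 of 2127 nuclei with 38.5% of the mt- UMIs of named classes, and the shares without them were 0.254%, 0.289%, 0.450% and 0.344%. Set against free RNA, the named classes held 0.550, 0.172, 0.415 and 0.291 times the mt- share of the droplets of their own library. In all 4 libraries, then, nuclei of named classes held a smaller mt- share than free RNA, and the gap was widest at day 1.

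Among the named classes, neuron-like nuclei had the lowest mt- shares by sums, but depth differed between classes too. Over all libraries the median depth was 10096 UMIs in glutamatergic neuron-like, 2125 in oligodendrocyte-like and 1897 in microglia-like nuclei. Glutamatergic neuron-like nuclei (608, 325, 1042 and 527 in sham control, day 1, day 3 and day 7), the excitatory neurons, held 0.112% (0.110 to 0.115) for sham control and 0.183% (0.180 to 0.187), 0.175% (0.173 to 0.178) and 0.131% (0.128 to 0.134) for days 1, 3 and 7. Ratios to sham control were 1.63 (1.59 to 1.68), 1.56 (1.52 to 1.60) and 1.16 (1.13 to 1.20) for days 1, 3 and 7. The median nucleus held 0.0732%, 0.115%, 0.117% and 0.0939% and 7, 17, 10 and 9 mt- UMIs, against 2.23, 8.03, 4.47 and 4.55 in an average droplet. Thinned to 1000 UMIs the shares were 0.123%, 0.215%, 0.195% and 0.151%, with sham control again lowest. With the UMIs of an average droplet subtracted from each nucleus the log2 ratios were 0.59, 0.51 and 0.018 for days 1, 3 and 7, so that day 7 lay close to sham control. With libraries merged without integration the day 7 sum was below sham control, with a log2 ratio of -0.19. The day 1 and day 3 sums of the merged clusters also lay closer to sham control. A merged cluster of 352 nuclei held 0.330%, 0.167%, 0.188% and 0.0833%, and every other of this name had a day 1 sum above sham control. At day 3 a cluster of 281 nuclei was also below it, at 0.118% against 0.163%. Striatal projection neuron-like nuclei (362, 122, 414 and 198) held 0.177% (0.172 to 0.182) for sham control and 0.266% (0.258 to 0.273), 0.298% (0.292 to 0.304) and 0.306% (0.299 to 0.314) for days 1, 3 and 7, and their ratios were 1.50 (1.44 to 1.56), 1.68 (1.63 to 1.74) and 1.73 (1.67 to 1.80) for days 1, 3 and 7. Their medians, 0.120%, 0.142%, 0.183% and 0.129%, put day 7 close to sham control, and 3 day 7 nuclei exceeded 5%. GABAergic interneuron-like nuclei (128, 62, 163 and 96) held 0.137% (0.130 to 0.144) for sham control and 0.169% (0.161 to 0.177), 0.211% (0.204 to 0.219) and 0.174% (0.166 to 0.182) for days 1, 3 and 7. All 3 of these neuron classes had their lowest sum in sham control, although GABAergic interneuron-like nuclei thinned to 1000 UMIs had a day 7 log2 ratio of -0.031. The remaining neuron-like nuclei (316, 153, 384 and 217) held 0.184% (0.178 to 0.189) for sham control and 0.221% (0.215 to 0.228), 0.242% (0.236 to 0.248) and 0.175% (0.169 to 0.182) for days 1, 3 and 7, and 1 of their clusters, of 80 nuclei, had a neuroblast marker and no marker of neurons at large among its 10 leading genes, so they are given as values only.

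By sums, glia-like nuclei held more. In nuclei of up to 2000 UMIs, glutamatergic neuron-like nuclei (7, 16 and 11) held 0.114%, 0.555% and 0.582% in sham control, day 3 and day 7. Oligodendrocyte-like nuclei of that depth held more in sham control alone, at 0.394%, 0.553% and 0.484%. Microglia-like nuclei held 0.398%, 1.47% and 0.855%. In the next depth range glutamatergic neuron-like nuclei held 0.149%, 0.349%, 0.280% and 0.179%, below oligodendrocyte-like nuclei at 0.717%, 0.793%, 1.21% and 0.881%. Oligodendrocyte-like nuclei (321, 160, 426 and 261), the myelin-forming cells, had mt- shares of 0.586% (0.569 to 0.604) for sham control and 0.808% (0.785 to 0.832), 0.818% (0.801 to 0.837) and 0.684% (0.665 to 0.703) for days 1, 3 and 7, and ratios of 1.38 (1.32 to 1.44), 1.40 (1.35 to 1.45) and 1.17 (1.12 to 1.21) for days 1, 3 and 7. Their medians were 0.233%, 0.437%, 0.358% and 0.342%, and the thinned shares 0.522%, 0.773%, 0.781% and 0.684%. The median nucleus held 4, 13, 7 and 8 mt- UMIs, against 2.23, 8.03, 4.47 and 4.55 in an average droplet. Post-injury values lay above sham control in the sums, medians and thinned shares. With the UMIs of an average droplet subtracted from each nucleus the log2 ratios were 0.20, 0.38 and 0.056 for days 1, 3 and 7, so that day 7 lay close to sham control, and with libraries merged without integration the day 7 log2 ratio was -0.11. The larger oligodendrocyte-like cluster of the merged libraries held 0.759%, 0.815%, 0.805% and 0.730%, so that day 1 and day 3 lay closer to sham control as well. The smaller (15, 5, 24 and 16 nuclei) held 0.347%, 0.453%, 0.276% and 0.252%. Their precursors (60, 37, 98 and 52) held 0.366% (0.344 to 0.389) for sham control and 0.355% (0.334 to 0.378), 0.625% (0.601 to 0.650) and 0.504% (0.476 to 0.533) for days 1, 3 and 7, and the day 1 ratio had an interval that includes 1, at 0.970 (0.889 to 1.06). The medians of the precursors, 0.294%, 0.324%, 0.331% and 0.429%, put day 1 above sham control and gave a day 3 ratio of 1.12 against 1.71 by sums.

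Microglia-like nuclei (87, 44, 192 and 96), the resident phagocytes of the brain, had the largest ratio of sums of the 4 glial classes at day 1 and day 3, and at day 7 the astrocyte-like nuclei did. Their mt- share was 0.277% (0.259 to 0.296) for sham control and 0.501% (0.478 to 0.525), 1.21% (1.18 to 1.23) and 0.480% (0.457 to 0.504) for days 1, 3 and 7, and the ratios to sham control were 1.81 (1.66 to 1.96), 4.35 (4.05 to 4.67) and 1.73 (1.59 to 1.88) for days 1, 3 and 7. At day 3 18 of these nuclei exceeded 5% mt- UMIs, with 2 at day 7 and none in the other libraries. The medians, 0.235%, 0.380%, 0.446% and 0.337%, gave ratios of 1.62, 1.90 and 1.44 for days 1, 3 and 7. The day 3 library remained highest by sum and by median, and the size of the difference depended on which was used. It also depended on clustering. With libraries merged without integration the microglia-like cluster held 0.612%, 0.619%, 1.57% and 0.996%, so that day 1 lay close to sham control by sums. The medians there were 0.304%, 0.395%, 0.469% and 0.358%. Leaving out nuclei over 5%, the log2 ratios were 0.85, 1.24 and 0.41 for days 1, 3 and 7.

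In astrocyte-like nuclei (150, 64, 221 and 71), which take up glutamate and line the vessels, the mt- share was 1.03% (1.01 to 1.05) for sham control and 0.661% (0.639 to 0.683), 1.81% (1.78 to 1.84) and 2.49% (2.45 to 2.54) for days 1, 3 and 7. Ratios to sham control were 0.642 (0.616 to 0.668), 1.76 (1.71 to 1.81) and 2.42 (2.35 to 2.49) for days 1, 3 and 7, so the day 1 sum was below and the other sums above. The medians, 0.385%, 0.426%, 0.504% and 0.650%, put day 1 above sham control, and so did the thinned shares, 0.851%, 0.936%, 1.36% and 1.74%. The direction at day 1 thus depended on how nuclei were weighted. It also depended on clustering, since the day 1 log2 ratio was 1.48 with libraries merged without integration, where the cluster led by Aldoc and Gm13340 counts as astrocyte-like, and 1.38 with the class taken from each nucleus's own markers. The 10% of the nuclei with most mt- UMIs held 71.8%, 49.4%, 70.8% and 71.4% of the class total.

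Nuclei of cells that line vessels and ventricles held high mt- shares. Endothelial cell-like nuclei (40, 6, 74 and 20) held 4.25% (4.15 to 4.36) for sham control and 4.83% (4.6 to 5.07), 4.36% (4.30 to 4.42) and 4.26% (4.15 to 4.38) for days 1, 3 and 7, with ratios of 1.14 (1.07 to 1.20), 1.03 (0.997 to 1.05) and 1.00 (0.967 to 1.04) for days 1, 3 and 7. Their medians, 4.59%, 4.35%, 4.25% and 3.43%, put all 3 post-injury libraries below sham control, and the day 1 values rest on 6 nuclei. Ependymal cell-like nuclei (17, 7, 20 and 7), the ciliated lining of the ventricles, held 11.3% (11.1 to 11.4) for sham control and 8.62% (8.46 to 8.79), 12.2% (12 to 12.4) and 9.46% (9.26 to 9.67) for days 1, 3 and 7. Their median in sham control, 13%, was above that of every other named class in that library. Choroid plexus cell-like nuclei numbered 7, 2, 8 and 3 and held 8.50%, 0.554%, 4.67% and 10.9%, values that rest on few nuclei. Fibroblast-like nuclei (15, 3, 30 and 16) held 1.08%, 6.42%, 3.23% and 2.87%, mural cell-like nuclei (12, 8, 20 and 2) 0.467%, 0.773%, 1.64% and 0.955% and neuroblast-like nuclei (4, 2, 20 and 6) 0.406%, 1.56%, 0.433% and 0.402%. Endothelial and ependymal cell-like nuclei held a larger mt- share than the droplets of their own library in all 4 libraries.

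**Figure D4:**
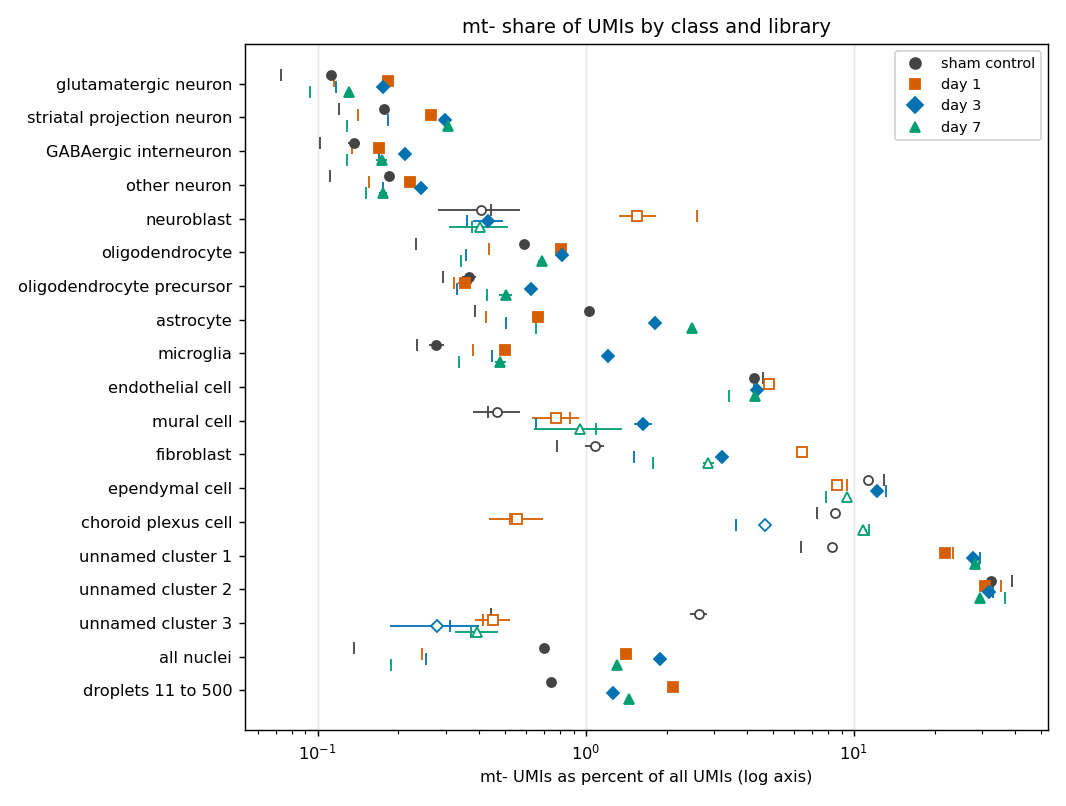
mt- UMIs as a percentage of all UMIs (log axis) for each class, all nuclei and droplets of 11 to 500 UMIs in the 4 libraries. Symbols are sums with exact 95% counting intervals, open where a class had under 20 nuclei in the library, and vertical ticks are medians of single nuclei. In each library the 4 neuron classes lie below every other named class and unnamed cluster 2 lies highest.

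The second comparison asked whether the mt- genes moved together. A gene was tested where the library and sham control held at least 10 UMIs together, and it was called at a 1.5-fold difference in CPM. In all nuclei at day 1, 14 of the 18 mt- genes tested were higher, against 10.4% of all 19255 genes tested, and 1 was lower, against 7.27%. At day 3, 16 of the 19 mt- genes tested were higher, against 9.21% of all 19647 genes tested, and 1 was lower, against 7.36%. At day 7, 16 of the 18 mt- genes tested were higher, against 9.05% of all 19144 genes tested, and none was lower, against 7.35%. The median log2 ratio of the mt- genes tested was 0.77, 1.36 and 1.13 for days 1, 3 and 7, and that of all genes tested was 0.02, -0.04 and -0.04 for days 1, 3 and 7. The single lower gene was mt-Nd3 at day 1 and day 3, and at day 3 its UMIs were listed under Gm28438. The UMI minimum was set on the sum of both libraries. Some tRNA genes, such as mt-Ta with 45 UMIs at day 7 against 4, thus passed it through 1 library. With at least 50 UMIs over both, 8 of 11, 11 of 12 and 10 of 12 were higher for days 1, 3 and 7. Of all genes tested at that minimum, 8.94%, 8.89% and 8.25% were past 1.5-fold in either direction. In nuclei over 2000 UMIs 6 of the 15 mt- genes tested were higher and 1 lower at day 1, with 17.9% of all 19164 genes tested past 1.5-fold in either direction. Without the nuclei over 5% mt- UMIs, the genes past 1.5-fold at day 1 were 0 higher and 2 lower of the 11 mt- genes tested, against 10.5% and 7.26% of all 19039 genes tested. At day 3 they were 5 higher and 1 lower of the 12 mt- genes tested, against 7.90% and 6.93% of all 19419 genes tested, and at day 7 2 higher and 1 lower of the 12 mt- genes tested, against 9.25% and 7.62% of all 18945 genes tested. That limit is set on the mt- share itself and removed 15.4% of the nuclei of day 1 against 4.07% of those of sham control, so fewer higher calls follow from its construction.

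Gene by gene the rRNAs had larger ratios in all nuclei than the protein-coding genes. In CPM, mt-Rnr2 stood at 2757, 6632, 8368 and 5558 in sham control, day 1, day 3 and day 7, ratios of 2.41 (2.38 to 2.43), 3.04 (3.00 to 3.07) and 2.02 (1.99 to 2.04) for days 1, 3 and 7. The ratios of mt-Rnr1 were 2.47 (2.42 to 2.51), 3.20 (3.14 to 3.25) and 2.38 (2.33 to 2.42) for days 1, 3 and 7. Both lay above each of the 7 protein-coding genes tested other than mt-Nd3 in all 3 libraries. For mt-Cytb the levels were 1095, 1706, 2539.7 and 1731 CPM, and the ratios 1.56 (1.53 to 1.59), 2.32 (2.28 to 2.36) and 1.58 (1.55 to 1.61) for days 1, 3 and 7. For mt-Nd1 the ratios were 1.64 (1.59 to 1.68), 2.58 (2.52 to 2.64) and 1.68 (1.63 to 1.72) for days 1, 3 and 7, and for mt-Nd4 1.61 (1.57 to 1.65), 2.43 (2.38 to 2.49) and 1.59 (1.55 to 1.64) for days 1, 3 and 7. Gene mt-Co1 had 1.99 (1.89 to 2.10), 2.81 (2.69 to 2.94) and 1.97 (1.88 to 2.08) for days 1, 3 and 7. The remaining protein-coding genes past the UMI minimum, mt-Nd2, mt-Nd5 and mt-Nd6, had ratios of 1.60, 2.17 and 1.66 for days 1, 3 and 7 (mt-Nd2), 1.78, 2.48 and 1.64 for days 1, 3 and 7 (mt-Nd5) and 1.43, 2.61 and 1.42 for days 1, 3 and 7 (mt-Nd6). In contrast mt-Nd3 had ratios of 0.492 (0.451 to 0.537), 0.000405 (1.02e-05 to 0.00226) and 0.774 (0.718 to 0.833) for days 1, 3 and 7, of which the day 3 value is that of the exchange with Gm28438.

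The ratios of the tRNA genes, mt-Tw aside, rest on few UMIs. Gene mt-Tw had 1.43 (1.27 to 1.61), 2.06 (1.86 to 2.28) and 2.53 (2.28 to 2.82) for days 1, 3 and 7. The counts of mt-Ta in nuclei were 4, 18, 20 and 45 UMIs, for ratios of 5.60 (1.85 to 22.8), 3.73 (1.25 to 15.0) and 13.6 (4.96 to 52.0) for days 1, 3 and 7, and those of mt-Tm were 14, 29, 48 and 74, for ratios of 2.58 (1.32 to 5.28), 2.56 (1.39 to 5.03) and 6.39 (3.58 to 12.2) for days 1, 3 and 7. All 3 were highest at day 7 as CPM, unlike the rRNA genes and the protein-coding genes tested, which, mt-Nd3 aside, were highest at day 3. The tRNA genes made up 0.501%, 0.428%, 0.397% and 0.763% of the mt- UMIs of the whole libraries, with day 7 highest.

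In droplets at day 1, 13 of the 14 mt- genes tested were higher, against 8.88% of all 17319 genes tested, and none was lower, against 8.63%. At day 3, 11 of the 16 mt- genes tested were higher, against 8.84% of all 18370 genes tested, and 2 were lower, against 7.24%. At day 7, 15 of the 18 mt- genes tested were higher, against 10.2% of all 17870 genes tested, and none was lower, against 7.11%. The lower genes at day 3 were mt-Nd3 and mt-Tp, the latter with 6 UMIs against 6 in a smaller sum of sham control droplets. The call of mt-Nd3 is that of the exchange, with 0 UMIs against 1119 on Gm28438. Here too some tRNA genes passed the UMI minimum through 1 library, such as mt-Ta with 48 UMIs at day 7 against 4. With at least 50 UMIs over both libraries, 10 of 11, 7 of 11 and 10 of 12 were higher for days 1, 3 and 7. Of all genes tested at that minimum, 8.59%, 8.11% and 9.15% were past 1.5-fold in either direction. Most mt- genes tested were thus a larger part of free RNA in each post-injury library, with mt-Cytb at ratios of 2.80 (2.73 to 2.87), 1.65 (1.62 to 1.69) and 1.90 (1.86 to 1.95) for days 1, 3 and 7 and mt-Rnr2 at 3.09 (3.04 to 3.14), 1.75 (1.73 to 1.78) and 1.95 (1.92 to 1.98) for days 1, 3 and 7. The median log2 ratio of the mt- genes tested was 1.40, 0.76 and 0.97 for days 1, 3 and 7.

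In glutamatergic neuron-like nuclei at day 1, 8 of the 11 mt- genes tested were higher, against 12.3% of all 16148 genes tested, and 1 was lower, against 7.18%. At day 3, 9 of the 11 mt- genes tested were higher, against 7.34% of all 16587 genes tested, and 1 was lower, against 9.03%. At day 7, 1 of the 11 mt- genes tested was higher, against 9.47% of all 16049 genes tested, and 1 was lower, against 9.43%. Day 7 thus lay near the background in both directions. In all 3 libraries the lower gene was mt-Nd3, and its day 3 call is that of the exchange, with 0 UMIs against 114 on Gm28438. The rRNA genes and the other protein-coding genes tested had ratios of 1.24 to 1.70 at day 1, 1.44 to 1.98 at day 3 and 1.05 to 1.25 at day 7, each gene alone carrying counting error from as few as 9 sham control UMIs for mt-Nd6. The day 7 call was mt-Tw, with 51 UMIs against 16. In CPM mt-Cytb was at 189, 307, 303 and 236 and mt-Rnr2 at 379, 643, 608 and 423. Day 1 and day 3 lay above sham control and day 7 close to it for both.

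In oligodendrocyte-like nuclei at day 1, 2 of the 11 mt- genes tested were higher, against 13.7% of all 10377 genes tested, and 2 were lower, against 16.8%. At day 3, 4 of the 11 mt- genes tested were higher, against 14.2% of all 11157 genes tested, and 1 was lower, against 11.8%. At day 7, 1 of the 11 mt- genes tested was higher, against 11.7% of all 10678 genes tested, and 2 were lower, against 16.4%. The higher genes were the rRNAs mt-Rnr1 and mt-Rnr2 at day 1, joined at day 3 by mt-Tw and mt-Nd5, and mt-Tw alone at day 7. In nuclei over 2000 UMIs both rRNA calls of day 1 were lost, and the genes past 1.5-fold were 0 higher and 2 lower of the 11 mt- genes tested, against 15.3% and 17.5% of all 9663 genes tested. The share of all genes past this fold was similar or larger in several of these comparisons, and at day 7 the median log2 ratio of the mt- genes, -0.05, was close to that of all genes, -0.07. The lower genes were mt-Nd3 in all 3 libraries, with mt-Nd6 at day 1 and day 7 from 1 and 5 UMIs against 10. The day 3 call of mt-Nd3 is that of the exchange, with 0 UMIs against 43 on Gm28438. With the class taken from each nucleus's own markers, however, the genes past 1.5-fold in either direction at day 3 were 10 of the 11 mt- genes tested, against 26.1% of all 11597 genes tested.

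In astrocyte-like nuclei at day 1, 0 of the 11 mt- genes tested were higher, against 13.7% of all 11224 genes tested, and 8 were lower, against 20.2%. At day 3, 7 of the 11 mt- genes tested were higher, against 13.6% of all 11797 genes tested, and 1 was lower, against 17.3%. At day 7, 8 of the 11 mt- genes tested were higher, against 14.5% of all 11055 genes tested, and none was lower, against 20.3%. The median log2 ratio of the mt- genes was -0.74, 0.77 and 1.22 for days 1, 3 and 7, against -0.07, -0.02 and -0.06 for days 1, 3 and 7 for all genes. The day 1 count, like the class sum, depended on the weighting of nuclei, and with nuclei thinned to 1000 UMIs the genes past 1.5-fold were 0 higher and 1 lower of the 9 mt- genes tested, against 18.6% and 18.9% of all 4603 genes tested. With the class from each nucleus's own markers the direction at day 1 turned, with a median log2 ratio of 1.30, and the genes past 1.5-fold in either direction were 11 of the 12 mt- genes tested, against 41.3% of all 10628 genes tested, at day 1 and 14 of the 15 mt- genes tested, against 41.7% of all 10695 genes tested, at day 7. At day 3, 4 of 9 were higher with thinned nuclei and 4 of 11 without nuclei over 5% mt- UMIs. At a fold of 2 it was 1 of 11, and 11 of 13 with the class from each nucleus's own markers. All genes past the fold in either direction were 35.9%, 29.9%, 12.3% and 37.7% in these settings. The lower gene of day 3 was mt-Nd3, with 0 UMIs against 80 on Gm28438. In the astrocyte-like clusters mt-Cytb stood at 1404, 842, 2682 and 3552 CPM.

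In microglia-like nuclei at day 1, 9 of the 10 mt- genes tested were higher, against 20.9% of all 9170 genes tested, and 1 was lower, against 17.8%. With nuclei thinned to 1000 UMIs, the genes past 1.5-fold at day 1 were 3 higher and 0 lower of the 7 mt- genes tested, against 21.9% and 24.7% of all 3389 genes tested. At day 3, 10 of the 11 mt- genes tested were higher, against 21.2% of all 10381 genes tested, and 1 was lower, against 14.5%. At day 7, 4 of the 10 mt- genes tested were higher, against 21.2% of all 9240 genes tested, and 1 was lower, against 16.7%. The median log2 ratio of the mt- genes, 0.72, 1.99 and 0.51 for days 1, 3 and 7, stood against 0.05, 0.09 and 0.06 for days 1, 3 and 7 for all genes. The lower gene was mt-Nd3 throughout, and its day 3 call is that of the exchange, with 0 UMIs against 52 on Gm28438. With the class from each nucleus's own markers, the median log2 ratios of the mt- genes were 2.08, 2.22 and 1.60 for days 1, 3 and 7, far larger at day 1 and day 7 and with day 3 ahead by less, and the genes past 1.5-fold in either direction at day 7 were 10 of the 10 mt- genes tested, against 33.7% of all 10311 genes tested. Without the nuclei over 5% mt- UMIs, the genes past 1.5-fold at day 7 were instead 1 higher and 1 lower of the 9 mt- genes tested, against 20.7% and 16.5% of all 9210 genes tested. In CPM mt-Cytb was at 459.7, 700.2, 1821 and 759 and mt-Rnr2 at 843, 1892, 4804 and 1797, both highest at day 3.

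The makeup of the mt- UMIs differed between nuclei and free RNA and between classes. The rRNA genes held 55.7% for sham control and 58.9%, 58.4% and 58.3% for days 1, 3 and 7 of the mt- UMIs in droplets, and 53.3%, 63.6%, 60.4% and 59.8% in all nuclei. In named classes they held 48.4%, 55.3%, 53.2% and 53.4%. The sham control library was lowest on all 3 counts. The rRNA share in unnamed cluster 1 was 61.3%, 71.9%, 63.6% and 62.5% and in unnamed cluster 2 59.8%, 64.0%, 62.3% and 62.7%, above that of named classes in each library. Oligodendrocyte-like nuclei held 54.1%, 62.8%, 61.4% and 62.3% as rRNA, and glutamatergic neuron-like nuclei 49.1%, 50.6%, 49.8% and 48.6%. At the other end, the 7 choroid plexus cell-like nuclei of sham control held 25.5% as rRNA and 73.0% as protein-coding UMIs, but 1 nucleus held 75.3% of their mt- UMIs.

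The balance of the 2 rRNAs also differed. For each UMI on mt-Rnr2 the droplets held 0.528 for sham control and 0.490, 0.553 and 0.598 for days 1, 3 and 7 on mt-Rnr1, and all nuclei held 0.344, 0.353, 0.363 and 0.406. The ratio was lower in nuclei than in droplets in all 4 libraries, and day 7 was highest in both. In unnamed cluster 2 it was lower than in all nuclei, at 0.289, 0.303, 0.300 and 0.376, and glutamatergic neuron-like nuclei had 0.455, 0.443, 0.436 and 0.502.

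The partners of the mt- proteins in the respiratory chain are made from nuclear genes. A list of 76 nuclear-encoded subunits of the respiratory chain and ATP synthase held 2.05% for sham control and 2.09%, 1.80% and 1.57% for days 1, 3 and 7 of the UMIs in droplets and 0.309%, 0.287%, 0.316% and 0.265% in named classes. Unnamed cluster 2 held 2.16%, 2.13%, 2.76% and 2.15% and unnamed cluster 1 0.774%, 1.66%, 2.18% and 2.02%. Like the mt- genes, then, these genes were a larger part of free RNA and of the unnamed clusters than of named classes. Unlike the mt- share, their share of droplets differed little at day 1 and was below sham control at days 3 and 7. Of the 74 tested there, 4 higher and 4 lower at day 1, 0 higher and 5 lower at day 3 and 1 higher and 7 lower at day 7 were past 1.5-fold. Over all genes tested in droplets the shares past 1.5-fold higher and lower were 8.88% and 8.63% at day 1, 8.84% and 7.24% at day 3 and 10.2% and 7.11% at day 7. In all nuclei the counts were 1 higher and 2 lower at day 1, 17 higher and 1 lower at day 3 and 0 higher and 3 lower at day 7, against 10.4% and 7.27%, 9.21% and 7.36%, and 9.05% and 7.35% of all genes tested. Of these counts for nuclei, that of higher genes at day 3 was above the share of all genes. In the glutamatergic neuron-like, oligodendrocyte-like, astrocyte-like and microglia-like nuclei, the share of the list past 1.5-fold higher exceeded that of all genes in 3 of 12 comparisons. The share past 1.5-fold lower did so in 4 of 12, and reached 38.4% of the list. Cox8a, a small subunit of complex IV, stood at 806, 809, 870.0 and 549.6 CPM in droplets and 82.6, 77.3, 109 and 66.6 in named classes. Ndufa4 stood at 964, 941, 826 and 738 in droplets, Cox6c at 684, 738, 547 and 527, Atp5b at 602, 597, 559.9 and 511 and Atp5h at 583, 575, 519 and 435.

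**Figure D5:**
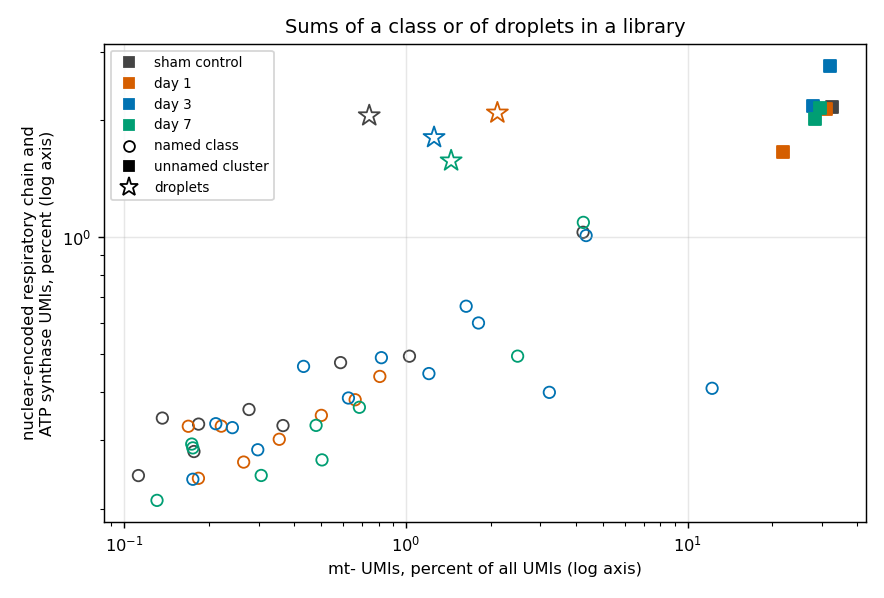
Nuclear-encoded respiratory chain and ATP synthase UMIs against mt- UMIs, both as a percentage of all UMIs (log axes), for class sums of at least 20 nuclei and for droplets (stars), coloured by library. Unnamed clusters 1 and 2 (filled squares) lie at the upper right, and droplets lie above the named classes of the same mt- share.

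In all nuclei few of the genes that act on the mitochondrial genome were past 1.5-fold. The 35 genes of mitochondrial transcription and RNA handling, among them the PGC-1 coactivators Ppargc1a and Ppargc1b, held 0.0902%, 0.0913%, 0.0865% and 0.0860% of the UMIs in named classes and 0.101%, 0.0969%, 0.0954% and 0.0935% in droplets. In all nuclei 34 were tested, with 0 higher and 0 lower at day 1, 0 higher and 0 lower at day 3 and 1 higher and 0 lower at day 7, below the shares of all genes given above for nuclei. In the glutamatergic neuron-like, oligodendrocyte-like, astrocyte-like and microglia-like nuclei, the share of the list past 1.5-fold higher exceeded that of all genes in 2 of 12 comparisons with sham control, and the share past 1.5-fold lower in 5 of 12. The levels in named classes were 99.3, 112, 95.8 and 99.8 CPM for Ppargc1a, 83.9, 70.7, 67.4 and 71.0 for Ppargc1b, 112, 126, 113 and 99.6 for Nrf1, 96.8, 96.9, 91.7 and 92.1 for Lrpprc and 61.3, 56.4, 58.1 and 62.4 for Pnpt1. Nuclear long noncoding RNAs, which stay in the nucleus, ran the other way from the mt- genes between the summed named classes and droplets or unnamed clusters 1 and 2. The 6 of them, Malat1, Meg3, Miat, Rian, Snhg11 and Neat1, held 7.80%, 9.07%, 7.15% and 9.09% in named classes, 7.04%, 8.50%, 6.79% and 8.23% in droplets, 4.52%, 4.15%, 2.11% and 2.23% in unnamed cluster 1 and 1.56%, 1.29%, 0.758% and 1.37% in unnamed cluster 2. With Malat1, the most abundant of them, left out of the total, the mt- share of all nuclei was 0.745%, 1.53%, 2.01% and 1.42%, with sham control again lowest.

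The genes whose pattern was most like that of the summed mt- genes were sought among 15352 other genes with at least 100 UMIs, over 61 sums of a class in a library. The Pearson correlation of log2 CPM with 1 added was 0.902 for Mt1 and 0.873 for Mt3, metallothioneins, 0.899 for Fth1, the ferritin heavy chain, 0.863 for Rps15, a cytosolic ribosomal protein, and 0.863 for Purb. The points share libraries, depth and free RNA, and include the unnamed clusters, so these values are a description.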

How the data were processed

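Single-nucleus libraries of 4 groups, 1 each, were examined. By the study's methods and the submitters' processing notes the authors mapped reads to GRCm38 (mm10) with STAR 2.7.3a (STARsolo, GeneFull, exonic and intronic reads), counted them against GENCODE vM8, collapsed UMIs within 1 mismatch and filtered UMIs of several genes. The deposited matrices hold unnormalised UMI counts of 46983 genes in every barcode, before any removal of free RNA. Positions and sequences come from GENCODE vM21 on GRCm38, in which 46488 gene identifiers were found. Strand and the handling of reads that map to several places are not given in the sources used here.

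Groups follow the labels. A possible exchange of the day 3 and day 7 labels could not be checked, since the text used here gives no number of nuclei per time point and groups are not inferred from measured values. The labels were kept, and day 3 and day 7 values may belong to the other time. Barcodes over 1000 UMIs were nuclei. The study called nuclei with emptyDrops and removed free RNA with SoupX, and neither was done here. Doublets were scored by nearest neighbours among simulated doublets without mt- genes, and 0.8% per 1000 nuclei were removed, 188 of 8909. Clusters (34 in all) came from Seurat 5.3.0 (R 4.3.3), with each library normalised by sctransform 0.4.2, 3000 variable features, integration, 30 principal components and resolution 0.8, leaving out the mt- genes and 7 chromosome 1 copies. A class score was the mean log2 fold of its 5 best of 165 markers of 15 lists. Clusters whose summed neuron markers reached 2/3 of the median over clusters were neuronal, and took a subclass where its score led by 0.5. Other clusters were named where the best score led the next by 1.5, and 3 stayed unnamed. These limits were set after the clusters were seen. The members, lists and tests were chosen with earlier results of these data known.

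No significance test was run, since each group holds 1 library. Shares carry exact Clopper-Pearson intervals and ratios exact conditional binomial intervals at the 95% level, from scipy 1.17.1, and cover counting error only. For calls and log2 ratios of single genes, counts under 3 UMIs were raised to a floor of 3, while printed ratios and intervals used the counts themselves. For thinning, 1000 UMIs were drawn from each nucleus. Genes named are the rRNA and protein-coding mt- genes, the 3 tRNA genes with most UMIs, the 3 copies with most UMIs, 5 genes of each list and the 5 genes most like the mt- sum. The other copies, mt-Tp, Neat1 and the genes that led clusters were named after their values were seen. Alternatives were those of the closing section.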

Additional observations from a re-analysis of the deposited data

Results flagged for a closer look

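By the sum of UMIs, the mt- share of the named classes as a whole differed in direction between libraries set against the same sham control. The ratio to sham control was 0.891 at day 1, against 1.28 at day 3 and 1.04 at day 7. By the median nucleus the ratios were 1.43, 1.53 and 1.22 for days 1, 3 and 7, and at day 1 the mean of single nuclei (0.508% against 0.480%) and the thinned share (0.512% against 0.485%) were also above sham control. So was the day 1 sum without ependymal cell-like and choroid plexus cell-like nuclei (0.289% against 0.254%).

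Opposite directions of the sum were also found in other neuron-like nuclei, a class with a neuroblast-marked cluster, with ratios of 1.20 at day 1 and 1.32 at day 3 but 0.954 at day 7. The day 7 ratio of medians was 1.36. In astrocyte-like nuclei the ratio of sums was 0.642 at day 1, 1.76 at day 3 and 2.42 at day 7. There the day 1 ratio of medians was 1.11, and the day 1 share was above sham control when thinned, with libraries merged without integration and with classes from each nucleus's own markers. With 1 library per time point, the differences between these ratios were not tested.

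The gene Gm28438, a chromosome 1 copy of mt-Nd3 that carries no mt- symbol and so stood outside the mt- share, held 5254 UMIs in the day 3 library against 1 in sham control. With 1 library per time point, whether it recurs in other animals was not tested.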

How the results depend on the processing

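The mt- share of all nuclei, given in the order sham control, day 1, day 3 and day 7, was 0.616%, 1.11%, 1.35% and 1.09% in nuclei over 2000 UMIs, 1.25%, 4.80%, 4.70% and 3.25% as the mean of single nuclei, 1.25%, 4.82%, 4.70% and 3.24% thinned to 1000 UMIs, 0.745%, 1.53%, 2.01% and 1.42% without Malat1 in the total, 0.321%, 0.508%, 0.741% and 0.516% from protein-coding mt- genes alone, 0.216%, 0.256%, 0.314% and 0.258% without nuclei over 5% mt- UMIs and 0.678%, 1.40%, 1.86% and 1.29% with no doublet removed. With the free RNA of a droplet subtracted it was 0.694%, 1.39%, 1.93% and 1.30%. The droplet share was 0.876%, 2.06%, 1.69% and 1.71% in droplets of 11 to 100 UMIs, 0.325%, 0.859%, 0.519% and 0.594% from protein-coding mt- genes alone, 0.792%, 2.29%, 1.34% and 1.57% without Malat1, and 1.44% at day 7 as the mean of single droplets. Sham control was lowest in every one of these settings. The highest library of all nuclei was day 3 except for the mean of single nuclei and the thinned nuclei, where it was day 1.

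Of the classes with at least 20 nuclei in every library and unnamed cluster 2, and of sums whose interval excluded a ratio of 1, the log2 ratios to sham control that changed sign were 0.00515 (unnamed cluster 2, day 1), 0.049 (unnamed cluster 2, day 3) in nuclei over 2000 UMIs, 0.39 (other neuron, day 7), 0.17 (astrocyte, day 1) for the mean of single nuclei, -0.031 (GABAergic interneuron, day 7), 0.28 (other neuron, day 7), 0.14 (astrocyte, day 1) thinned, 0.23 (other neuron, day 7), 1.38 (astrocyte, day 1) with the class taken from each nucleus's own markers, -0.19 (glutamatergic neuron, day 7), -0.11 (oligodendrocyte, day 7), 1.48 (astrocyte, day 1) with libraries merged without integration, and 1.71 (unnamed cluster 2, day 1), 0.00145 (unnamed cluster 2, day 7) without nuclei over 5%, which compare 1 nucleus with 2 and show nothing of this cluster. As the median of single nuclei, a setting chosen after seeing the data, they were 0.45 (other neuron, day 7), 0.15 (astrocyte, day 1). Outside that set, the named classes as a whole at day 1 turned above sham control by the mean, the thinned and the median share and, with a log2 ratio of 0.18, without ependymal and choroid plexus cells (chosen after seeing the data), and endothelial cell-like nuclei turned below it by all 3 at day 3 and day 7 and by the thinned and the median share at day 1. Classes under 20 nuclei in a library turned in 2 cases, neuroblast-like nuclei at day 3 by the mean and the median and choroid plexus cell-like nuclei at day 3 by the mean. The day 1 ratio of oligodendrocyte precursor-like nuclei, whose interval included 1, also turned above it by the median. With the UMIs of an average droplet subtracted, 21 of 31 shares and ratios recomputed moved beyond their counting interval, none with a change of sign. The log2 ratios for days 1, 3 and 7 were then 0.59, 0.51 and 0.018 (glutamatergic neuron), 0.46, 0.68 and 0.77 (striatal projection neuron), 0.077, 0.50 and 0.22 (GABAergic interneuron), 0.0068, 0.21 and -0.39 (other neuron), 0.20, 0.38 and 0.056 (oligodendrocyte), -0.37, 0.74 and 0.35 (oligodendrocyte precursor), -0.83, 0.83 and 1.28 (astrocyte), 0.83, 2.35 and 0.72 (microglia), -0.095, -0.021 and -0.17 (unnamed cluster 2). The causes were not tested.

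The number of mt- genes past 1.5-fold in either direction was 15 of 18 against 17.6% (all nuclei, day 1), 17 of 19 against 16.6% (all nuclei, day 3), 16 of 18 against 16.4% (all nuclei, day 7), 13 of 14 against 17.5% (droplets, day 1), 13 of 16 against 16.1% (droplets, day 3), 15 of 18 against 17.3% (droplets, day 7), 9 of 11 against 19.5% (glutamatergic neuron, day 1), 10 of 11 against 16.4% (glutamatergic neuron, day 3), 2 of 11 against 18.9% (glutamatergic neuron, day 7), 4 of 11 against 30.4% (oligodendrocyte, day 1), 5 of 11 against 25.9% (oligodendrocyte, day 3), 3 of 11 against 28.1% (oligodendrocyte, day 7), 8 of 11 against 33.9% (astrocyte, day 1), 8 of 11 against 30.9% (astrocyte, day 3), 8 of 11 against 34.8% (astrocyte, day 7), 10 of 10 against 38.7% (microglia, day 1), 11 of 11 against 35.7% (microglia, day 3), 5 of 10 against 37.9% (microglia, day 7). Each count is given of the mt- genes tested and against the share of all genes tested that passed. With at least 50 UMIs over both libraries it was 9 of 11, 8 higher, against 8.94% (all nuclei, day 1), 10 of 12, 10 higher, against 8.25% (all nuclei, day 7), 8 of 11, 7 higher, against 8.11% (droplets, day 3), 1 of 9, 0 higher, against 12.5% (oligodendrocyte, day 7), 3 of 7, 3 higher, against 22.9% (microglia, day 7). At a fold of 2 it was 7 of 18, 6 higher, against 7.89% (all nuclei, day 1), 10 of 18, 10 higher, against 6.62% (all nuclei, day 7), 3 of 16, 2 higher, against 6.73% (droplets, day 3), 8 of 18, 8 higher, against 7.39% (droplets, day 7), 1 of 11, 1 higher, against 8.37% (glutamatergic neuron, day 1), 2 of 11, 1 higher, against 5.49% (glutamatergic neuron, day 3), 1 of 11, 1 higher, against 7.58% (glutamatergic neuron, day 7), 2 of 11, 0 higher, against 12.4% (oligodendrocyte, day 1), 1 of 11, 0 higher, against 9.33% (oligodendrocyte, day 3), 4 of 11, 0 higher, against 13.7% (astrocyte, day 1), 2 of 11, 1 higher, against 12.3% (astrocyte, day 3), 3 of 10, 2 higher, against 17.2% (microglia, day 1), 3 of 10, 2 higher, against 16.4% (microglia, day 7). In nuclei over 2000 UMIs it was 7 of 15, 6 higher, against 17.9% (all nuclei, day 1), 2 of 11, 0 higher, against 32.8% (oligodendrocyte, day 1), with thinned nuclei 1 of 9, 0 higher, against 37.5% (astrocyte, day 1), 5 of 9, 4 higher, against 35.9% (astrocyte, day 3), 3 of 7, 3 higher, against 46.7% (microglia, day 1), and with the class from each nucleus's own markers 10 of 11, 9 higher, against 26.1% (oligodendrocyte, day 3), 14 of 15, 14 higher, against 41.7% (astrocyte, day 7), 10 of 10, 9 higher, against 33.7% (microglia, day 7). Without nuclei over 5% mt- UMIs, also chosen after seeing the data, it was 2 of 11, 0 higher, against 17.8% (all nuclei, day 1), 6 of 12, 5 higher, against 14.8% (all nuclei, day 3), 3 of 12, 2 higher, against 16.9% (all nuclei, day 7), 1 of 10, 0 higher, against 28.8% (oligodendrocyte, day 7), 4 of 10, 0 higher, against 34.1% (astrocyte, day 1), 5 of 11, 4 higher, against 29.9% (astrocyte, day 3), 2 of 9, 1 higher, against 37.2% (microglia, day 7). Scaling by the median of ratios or by the UMIs of other genes, and dropping the UMI minimum, left each of the 18 counts within 1.5 times its value.

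Depth limits classes whose median nucleus held few mt- UMIs, such as glutamatergic neuron-like and oligodendrocyte-like nuclei, and the small classes rest on few nuclei. Class shares with no doublet removed were not run, because removed barcodes were not clustered. No paired analysis was possible because each group holds 1 library.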

Other observations

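Barcodes of over 500 and up to 1000 UMIs belong to neither the droplets nor the nuclei. They numbered 269 for sham control and 4137, 4149 and 791 for days 1, 3 and 7, and their mt- share was 6.37%, 3.09%, 4.69% and 6.09% as a sum and 0.638%, 1.66%, 1.02% and 1.36% as the median barcode. The sum lay above that of the droplets and of the nuclei of the same library in all 4 libraries.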
